A study of Mus musculus with 12 samples.

Results

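The comparison described here asked whether Sema3E changed transcript levels differently in the ovarian stromal tissue (OST) and in the granulosa cells (GCs) of the same kind of ovary. For each gene the change with Sema3E in GCs was subtracted from the change with Sema3E in OST, and the result is called the interaction. A negative interaction therefore means that the Sema3E minus IgG difference was lower in OST than in GCs. Of 23150 genes in the deposited table, 14668 were annotated as protein-coding (13379) or as long non-coding RNA (lncRNA, 1289) and had over 1 TPM (the transcript share of a gene among all length-corrected reads of a library, scaled to the same total in each) in at least 1 of the 12 libraries, and these genes were tested.

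The samples came from wild-type C57BL/6J immature female mice that were superovulated with PMSG, which drives follicle growth, and then with hCG, which takes the place of the natural surge of luteinizing hormone (LH). Before hCG, 2 µg Sema3E was injected into 1 ovary, dissolved in 10 µL PBS containing BSA at 0.1%, and 2 µg IgG into the opposite one. Tissue was collected 8 h after hCG, GCs by needle puncture of the follicles and OST as what then remained of the ovary. The groups were OST Sema3E, OST IgG, GC Sema3E and GC IgG, with 3 libraries each, and all 4 groups shared the genotype, the gonadotropins and an injection into the ovary. Each library held the GCs or the OST of 1 ovary, and because no source says which libraries came from the same mouse, the libraries were treated as unpaired.

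Sema3E is a secreted guidance protein that binds Plexin-D1 on endothelial and other cells, directly and without the neuropilin co-receptor that most class 3 semaphorins need, and it is best known for limiting vessel growth. In the periovulatory ovary the LH signal acts mainly through cAMP in theca cells and in the granulosa cells of large follicles, where it induces steroidogenic enzymes, EGF-like growth factors such as amphiregulin and matrix-remodelling enzymes. Vessels lie in the theca and stroma and do not enter the granulosa layer before ovulation. The 2 tissues therefore hold different cells, and oocytes can be carried along in either. The levels are bulk values, so fewer cells of a type and less RNA per cell cannot be told apart.

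The marker genes fitted the tissue labels in part. The summed level of 18 endothelial markers was 586 to 1000 TPM in the 6 OST libraries, against 45.4 to 81.0 TPM in the 6 GC libraries. Granulosa cell markers were abundant in both tissues, at 8004 to 18465 TPM in OST and 9752 to 18218 TPM in GCs, so that transcripts of GCs were also present in OST. Globin transcripts took 0.26% to 0.64% of TPM in OST and 4.54% to 19.6% in GCs. Replicates of a group correlated over genes at r = 0.926 to 0.995.

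A pair of IgG libraries stood apart, and they act on every interaction because each is 1 of only 3 in its group. In OST IgG replicate 3 the steroidogenic cholesterol carrier Star was at 12.1 TPM, while the other OST libraries held 1173 to 1801 TPM. The same library had the highest summed oocyte markers of the series (1964 TPM, against 426 to 711 TPM in the other OST libraries) and the lowest theca and stroma markers within OST (2598 TPM, against 5250 to 6838 TPM). GC IgG replicate 1 held 3364 TPM of macrophage and monocyte markers, against 246 to 771 TPM in the other GC libraries. A fit without these 2 libraries, which leaves 2 libraries in each IgG group, is therefore also given below. The 2 libraries were picked by their values in these same data. Leaving out control libraries that lie apart can lower the spread, so p-values of that fit cannot be taken at face value.

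**Figure D1:**
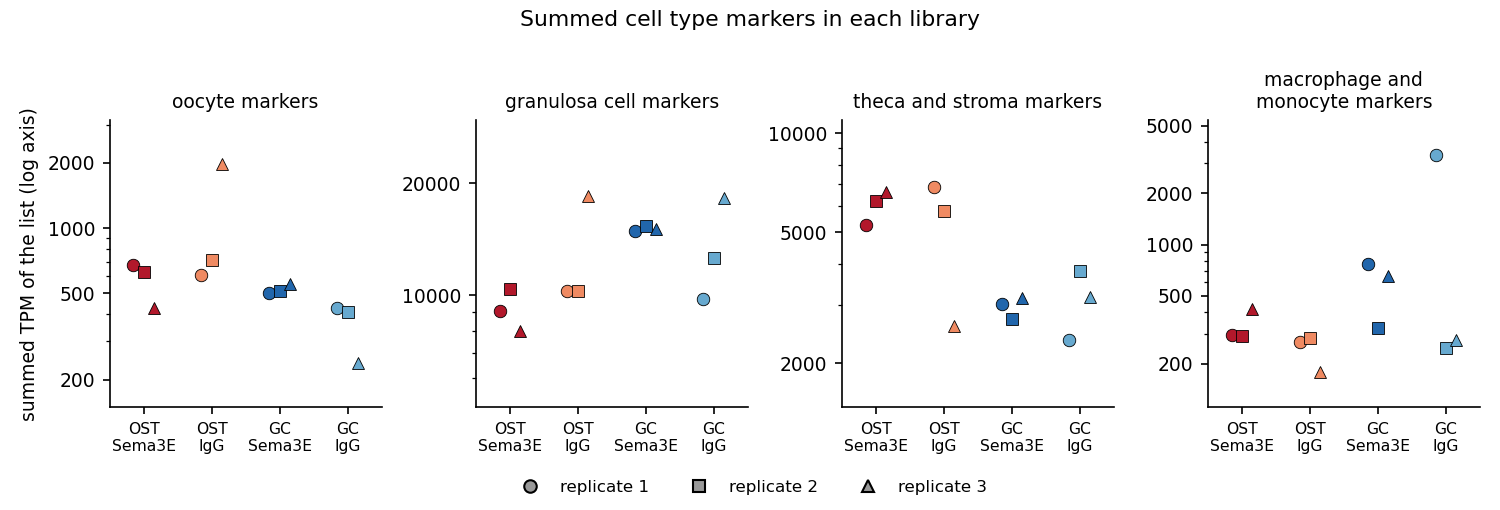
Summed TPM (y axis, log scale, a different range in each panel) of 4 lists of cell type markers in each of the 12 libraries, with 1 point per library and the replicate number shown by the symbol. OST IgG replicate 3 lay apart from the other OST libraries for oocyte, granulosa and theca and stroma markers, and GC IgG replicate 1 lay above all others for macrophage and monocyte markers (3364 TPM).

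No gene had an interaction at a Benjamini-Hochberg adjusted p under 0.05 in the limma fit over all 12 libraries (0 of 14668 genes, 0%). The smallest adjusted p was 0.179. At an unadjusted p under 0.05 there were 2886 genes (19.7% of those tested), of which 2700 (18.4%) had a negative and 186 (1.27%) a positive interaction. The leading genes named below were taken from those with an unadjusted p under 0.05 and an interaction beyond 1 on the log2(TPM + 1) scale. These were 335 with a negative (2.28%) and 58 with a positive interaction (0.395%), together 393 genes (2.68%). They are candidates by an unadjusted test. Leading genes also had to be without overlap of Sema3E and IgG libraries in at least 1 tissue. A lack of overlap in 1 tissue was thus a condition of their choice and adds no evidence. Slc5a3 and the genes of the study and of the gene lists were named by other rules, given with the processing. Without the 2 libraries, 11 genes passed the adjusted threshold, and 148 negative and 45 positive genes met the unadjusted rule.

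The excess of negative genes depended on the scale. The median interaction over all tested genes was −0.22, made of a median change of −0.17 in OST and 0.05 in GCs. When each library was rescaled by the median ratio to the average library, the median interaction became 0.01, and 91 genes were negative and 153 positive by the same rule. Without the 2 libraries that stood apart the median interaction was −0.15. At an unadjusted p under 0.05, 2479 of the 14668 genes were then negative and 505 positive. With median-ratio scaling over 12 libraries 1260 were negative and 1255 positive at that threshold. Single values below are on the TPM scale and should be read against the median of −0.22.

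Most of these genes moved in opposite directions in the 2 tissues. Of the 335 negative genes, 332 had a lower mean with Sema3E in one tissue and a higher mean in the other, with a median change of −0.77 in OST and 0.47 in GCs. The OST change was the larger one for 269 of them and the GC change for 66. Of the 58 positive genes, 55 had opposite signs, with a median change of 0.78 in OST and −0.59 in GCs. Opposite signs were also the rule in general, at 70.5% of all tested genes, and a gene with a large interaction has to differ in at least one tissue. Sema3E and IgG libraries did not overlap for 212 of the negative genes in OST and for 210 in GCs, against 35.3% and 11.5% of all tested genes in these tissues, and 112 genes were without overlap in both. A single library set many of the extremes, since 303 of the 335 negative genes had their highest OST value in OST IgG replicate 3 and 185 had their lowest GC value in GC IgG replicate 1.

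**Figure D2:**
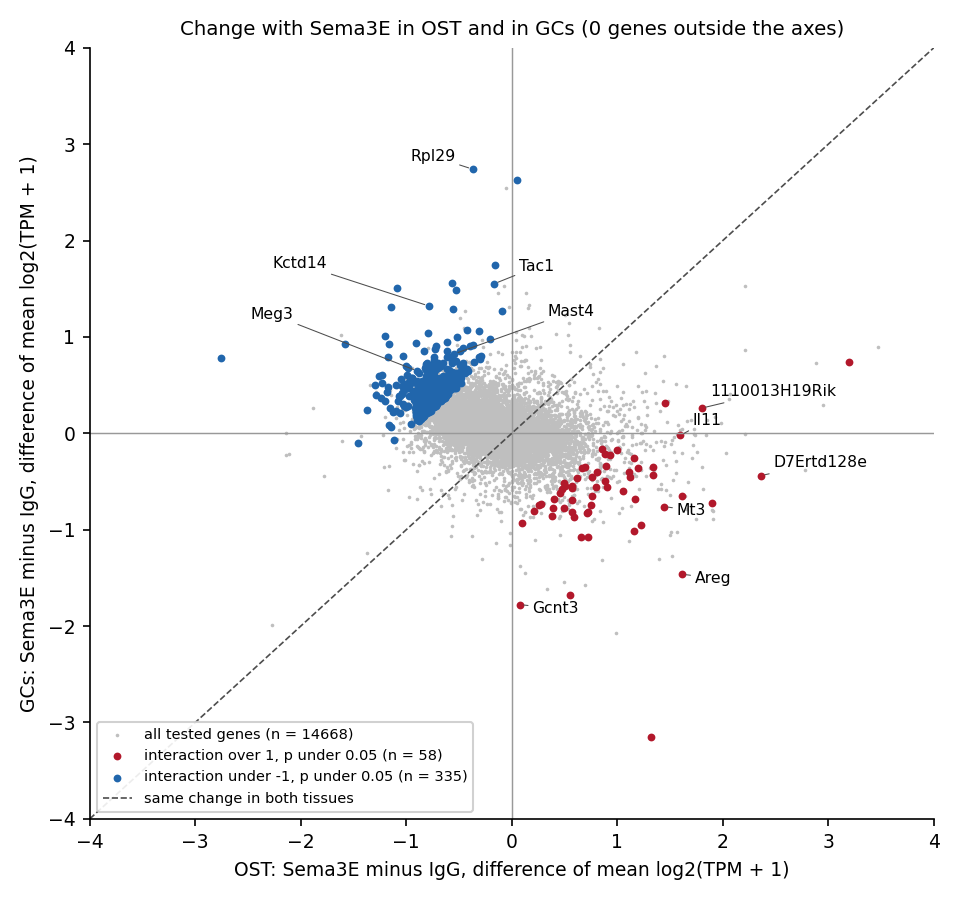
Change with Sema3E (Sema3E minus IgG, difference of mean log2(TPM + 1), n = 3 libraries per group) in OST on the x axis and in GCs on the y axis for the 14668 tested genes. Genes with a negative interaction (blue, 335) lay up and left of the dashed line of equal change and those with a positive interaction (red, 58) lay down and right of it, mostly in the quadrants where the 2 tissues moved in opposite directions.

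The smallest p belonged to Mast4 (chr13:102732486-103334497, minus strand), which encodes a microtubule-associated serine/threonine kinase. Mast4 was at 1.82, 2.42 and 1.84 TPM in OST Sema3E and 3.93, 2.87 and 3.49 TPM in OST IgG, and at 6.33, 4.38 and 6.16 TPM in GC Sema3E and 2.29, 3.12 and 2.75 TPM in GC IgG. All Sema3E libraries were below all IgG libraries in OST and above all of them in GCs. The interaction was −1.37 ± 0.23 (SE, limma, unadjusted p = 9.1e-05, adjusted p = 0.179), and it was −1.27 without the 2 libraries (adjusted p = 0.112). Slc5a3, the sodium-dependent myo-inositol transporter, was the other gene closest to the threshold. It was at 7.95, 8.04 and 7.60 TPM in OST Sema3E and 11.9, 13.5 and 14.9 TPM in OST IgG, and at 9.5, 8.67 and 8.86 TPM in GC Sema3E and 7.06, 8.30 and 8.14 TPM in GC IgG. Again neither tissue had an overlap, and most of the interaction of −0.88 ± 0.15 (adjusted p = 0.179) came from OST. Slc5a3 shares exons with Mrps6 in the annotation, so reads of one may have been counted for the other.

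Meg3 (chr12:109541001-109571726, plus strand), an imprinted lncRNA expressed from the maternal allele, had the most negative interaction among the 12 leading negative genes, at −1.54 ± 0.30 (adjusted p = 0.179). It was at 18.3, 29.8 and 21.1 TPM in OST Sema3E and 38.6, 49.4 and 41.1 TPM in OST IgG, and at 74.1, 92.5 and 59.9 TPM in GC Sema3E and 38.5, 53.0 and 51.4 TPM in GC IgG. The Sema3E libraries lay below the IgG libraries in OST and above them in GCs without any overlap, while the ranges of the 2 IgG groups overlapped. The interaction was −1.43 without the 2 libraries. Other annotated genes lie within Meg3 on its strand, and no source used here states whether the counting used strand.

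The rest of the 12 leading negative genes had diverse functions. Srrm2, a large scaffold protein of nuclear speckles, was at 75.3, 112 and 112 TPM in OST Sema3E and 174, 163 and 187 TPM in OST IgG, and at 201, 192 and 174 TPM in GC Sema3E and 126, 176 and 161 TPM in GC IgG. Its OST groups did not overlap, and its GC groups did (interaction −1.13 ± 0.24, and −0.94 without the 2 libraries). Pnisr, another serine- and arginine-rich nuclear protein, had 21.6, 28.7 and 28.7 TPM in OST Sema3E and 45.7, 44.3 and 61.5 TPM in OST IgG, and 42.6, 41.7 and 37.2 TPM in GC Sema3E and 30.5, 38.8 and 36.4 TPM in GC IgG. Here too only the OST groups were apart (interaction −1.11 ± 0.22, and −0.87 without the 2 libraries).

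Krba1, which encodes a protein with a KRAB-A domain, showed both tissues apart. It was at 19.2, 23.2 and 18.1 TPM in OST Sema3E and 28.1, 30.2 and 32.3 TPM in OST IgG, and at 24.9, 28.6 and 23.6 TPM in GC Sema3E and 12.5, 17.8 and 20.1 TPM in GC IgG (interaction −1.17 ± 0.23, and −0.94 without the 2 libraries). Mdm4, a negative regulator of p53, was at 11.6, 14.5 and 12.9 TPM in OST Sema3E and 19.1, 19.3 and 28.7 TPM in OST IgG, and at 20.8, 19.3 and 19.6 TPM in GC Sema3E and 16.2, 16.8 and 14.3 TPM in GC IgG. Its groups were also without overlap in both tissues (interaction −1.04 ± 0.21, and −0.88 without the 2 libraries). Kcp, a secreted modulator of BMP signalling, had an interaction of −1.05 ± 0.22, and Zdhhc23, a palmitoyltransferase, of −1.03 ± 0.21. The remaining leading genes were Tmem245 (−1.03 ± 0.20), Glcci1 (−1.04 ± 0.21), Bend4 (−1.01 ± 0.21) and Spaca6 (−1.10 ± 0.24), the last of which encodes a sperm membrane protein needed for fusion with the egg. Leaving out any 1 library kept the unadjusted p of each of these 12 genes under 0.05. For Kcp, Zdhhc23, Tmem245, Glcci1, Bend4 and Spaca6 the interaction was between −1.04 and −0.80 without the 2 libraries. With median-ratio scaling it was −1.16 for Mast4 and −1.26 for Meg3. With that scaling Krba1 (−0.89), Kcp (−0.87), Glcci1 (−0.86), Pnisr (−0.83) and Tmem245 (−0.78) no longer passed the size cutoff. Neither did Mdm4 (−0.77), Bend4 (−0.76) and Zdhhc23 (−0.74). The unadjusted p of all these genes stayed under 0.05 (limma).

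On the positive side, D7Ertd128e had the largest interaction of the 12 leading genes, at 2.80 ± 0.57 (adjusted p = 0.179). It was at 3.94, 11.3 and 11.1 TPM in OST Sema3E and 1.54, 1.14 and 0 TPM in OST IgG, and it was listed at 0 in all 3 GC Sema3E libraries and at 0.446, 0.723 and 0 TPM in GC IgG. The interaction was thus carried by OST, and it was 2.35 without the 2 libraries. Hspb9, a small heat shock protein known from testis, was at 4.69, 4.05 and 4.55 TPM in OST Sema3E and 1.12, 2.77 and 2.18 TPM in OST IgG, and at 3.53, 4.40 and 2.61 TPM in GC Sema3E and 4.93, 5.17 and 5.78 TPM in GC IgG. Its groups did not overlap in either tissue, higher with Sema3E in OST and lower with Sema3E in GCs (interaction 1.38 ± 0.29, and 1.48 without the 2 libraries).

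Mt3, a metallothionein that binds zinc and copper, was, after Mgp, the most abundant of the 12 leading positive genes in OST. It was at 208, 206 and 226 TPM in OST Sema3E and 107, 149 and 29.0 TPM in OST IgG, and at 36.8, 44.2 and 42.3 TPM in GC Sema3E and 41.1, 90.0 and 92.6 TPM in GC IgG. Sema3E libraries were above IgG libraries in OST, while GC IgG replicate 1 lay within the GC Sema3E range. The interaction was 2.20 ± 0.71 over 12 libraries (adjusted p = 0.186). Without the 2 libraries it was 1.89 ± 0.19 and had the smallest adjusted p of that fit (limma, 0.0373), a value shared with Tac1, Synb, Mtln and mt-Atp8.

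Mgp and Cd248 are genes of stromal cells. Mgp, an inhibitor of soft tissue calcification, was at 535, 534 and 505 TPM in OST Sema3E and 476, 462 and 244 TPM in OST IgG, and at 43.5, 41.4 and 53.3 TPM in GC Sema3E and 63.8, 77.1 and 66.2 TPM in GC IgG (interaction 1.05 ± 0.32). Cd248, a surface protein of fibroblasts and pericytes, had 130, 131 and 139 TPM in OST Sema3E and 121, 123 and 48.2 TPM in OST IgG, and 4.12, 5.26 and 4.45 TPM in GC Sema3E and 10.7, 9.83 and 6.53 TPM in GC IgG (interaction 1.39 ± 0.44). In OST both were set apart mainly by OST IgG replicate 3, and in GCs all 3 Sema3E libraries were below the IgG libraries. The interaction of Cd248 was 0.82 and that of Mgp 0.79 without the 2 libraries.

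Il11, a cytokine of the interleukin 6 family, was at 4.13, 1.56 and 5.6 TPM in OST Sema3E and 0.622, 0.768 and 0.0908 TPM in OST IgG, and between 0.0444 and 0.511 TPM in all 6 GC libraries. The OST groups did not overlap, and the GC values were too low to compare (interaction 1.62 ± 0.46, and 1.30 without the 2 libraries). Gcnt3, a glycosyltransferase of mucin-type glycans, was the opposite case. It was at 0.188, 0 and 1.80 TPM in OST Sema3E and 0.0412, 0.214 and 1.25 TPM in OST IgG, and at 0.0354, 0 and 0.0359 TPM in GC Sema3E and 1.63, 2.90 and 3.22 TPM in GC IgG. Only the GC groups differed (interaction 1.85 ± 0.55, and 2.39 without the 2 libraries). The others were Hemk1 (1.45 ± 0.35), Rhov (1.51 ± 0.44), Nol3 (1.05 ± 0.32), Msc (1.85 ± 0.58) and Pcdhgc4 (2.26 ± 0.56). They were, without the 2 libraries, 1.43 for Hemk1, 0.95 for Rhov, 1.03 for Nol3, 1.15 for Msc and 2.12 for Pcdhgc4. Pcdhgc4 shares its last exons with 25 other annotated genes of the protocadherin gamma cluster, so its level is uncertain.

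Of the genes known only by a clone or predicted name, 1110013H19Rik was at 5.08, 5.35 and 4.93 TPM in OST Sema3E and 0.405, 0.6 and 1.42 TPM in OST IgG, and at 1.39, 2.72 and 2.12 TPM in GC Sema3E and 0.941, 2.04 and 1.74 TPM in GC IgG. The OST groups were far apart and the GC groups overlapped (interaction 1.54 ± 0.34, and 1.96 with adjusted p = 0.0402 without the 2 libraries). Gm38102 had 13.8, 16.2 and 15.5 TPM in OST Sema3E and 29.8, 29.4 and 48.4 TPM in OST IgG, and 26.6, 28.8 and 26.1 TPM in GC Sema3E and 20.1, 25.9 and 21.6 TPM in GC IgG (interaction −1.42 ± 0.25, and −1.11 with adjusted p = 0.0447 without the 2 libraries). It lies antisense to AI480526, so the source of its reads cannot be told apart. Gm28192, antisense to Csnk1d, had an interaction of −1.50 ± 0.29, and 1700020A23Rik one of 1.54 ± 0.31, which were −1.30 and 1.69 without the 2 libraries. In all, lncRNAs made up 79 of the 335 negative and 11 of the 58 positive genes, against 8.79% of the genes tested. At an unadjusted p under 0.05 alone, 15.9% of lncRNAs were negative and 1.47% positive. For protein-coding genes these shares were 18.6% and 1.25%, so lncRNAs were in excess on the negative side only with the added cutoff on the size of the interaction.

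The 11 genes at an adjusted p under 0.05 without the 2 libraries were a mixed set with adjusted p between 0.0373 and 0.0471. Besides Mt3, Tac1, 1110013H19Rik and Gm38102 they were Synb, an envelope gene of retroviral origin (−1.33, and −1.37 over 12 libraries), Cbx6, a Polycomb protein (−0.98 and −0.97), Mtln, a small protein of the inner mitochondrial membrane (0.79 and 0.60), the mitochondrially encoded ATP synthase subunit mt-Atp8 (0.98 and 0.60), and the ribosomal protein genes Rps29, Rpl38 and Rps28 (0.87, 0.76 and 0.83, and 0.36, 0.36 and 0.32 over 12 libraries). Each kept its sign over 12 libraries. mt-Atp8 overlaps mt-Atp6, and short ribosomal protein genes have many near-identical copies, so their counts are less certain.

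**Figure D3:**
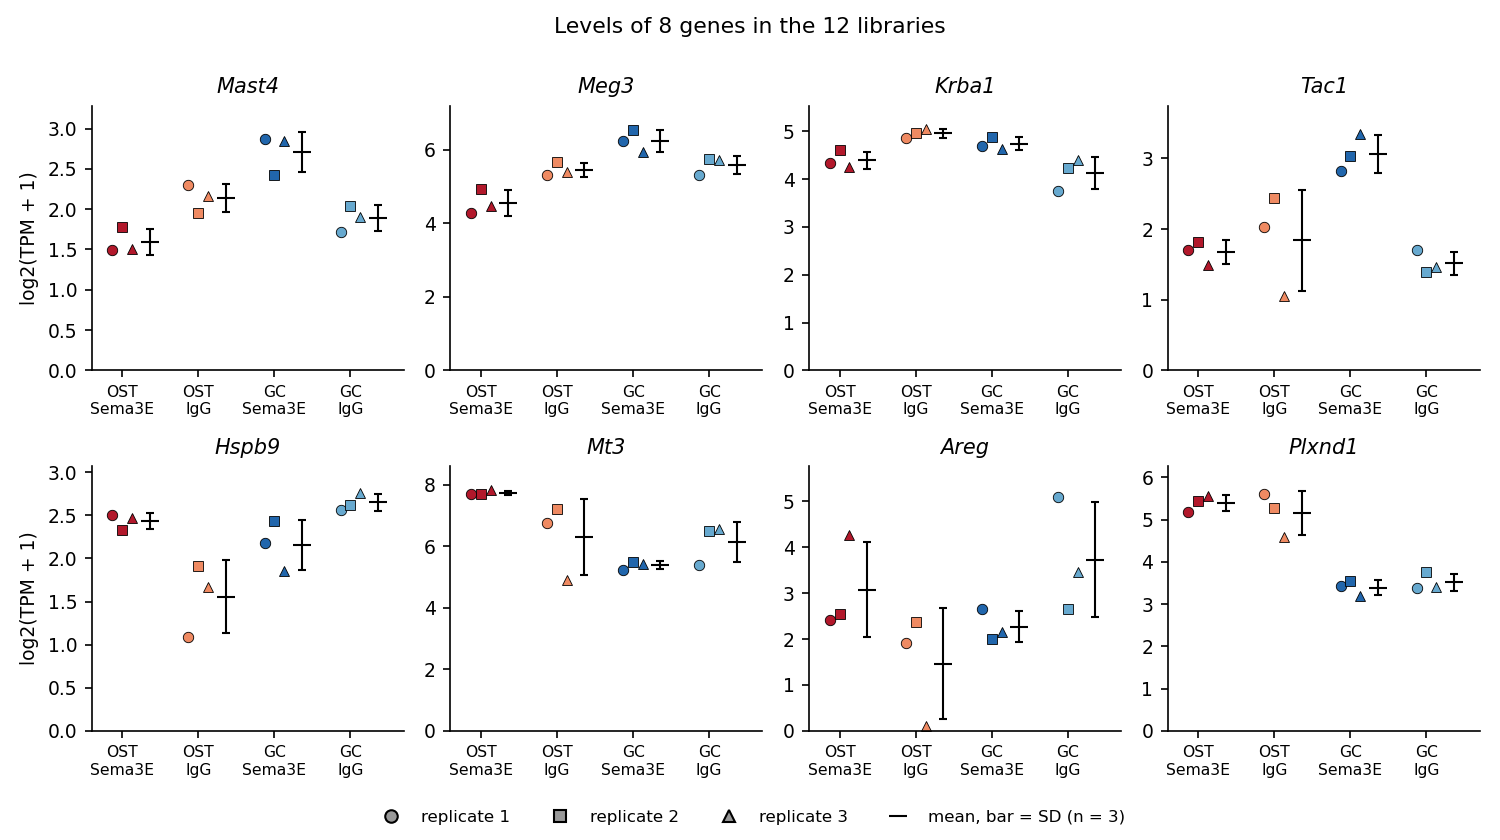
Level of 8 genes as log2(TPM + 1) (y axis, starting at 0) in the 4 groups, with 1 point per library and the mean and SD (n = 3) beside the points. Mast4, Meg3 and Krba1 lay lower with Sema3E in OST and higher with Sema3E in GCs, Hspb9 showed the reverse, Tac1 differed in GCs only, and Plxnd1 differed between tissues more than between treatments.

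The receptor and the ligand themselves did not show a tissue difference at these errors. Plxnd1, which encodes the Sema3E receptor, was at 35.5, 42.2 and 46.0 TPM in OST Sema3E and 47.8, 37.9 and 23.2 TPM in OST IgG, and at 9.74, 10.8 and 8.13 TPM in GC Sema3E and 9.39, 12.5 and 9.59 TPM in GC IgG. Treated and control libraries overlapped in both tissues, and all OST levels were above all GC levels. The interaction was 0.35 ± 0.32 (adjusted p = 0.542) and 0.14 without the 2 libraries. Endogenous Sema3e mRNA, which does not report the injected protein, was between 0.199 and 0.582 TPM in OST and 0.459 and 1.17 TPM in GCs, with an interaction of 0.02 ± 0.21 (adjusted p = 0.958). Nrp1, a co-receptor of other class 3 semaphorins and of VEGF, had an interaction of −0.05 ± 0.30, and Kdr, the main VEGF receptor of endothelial cells, of 0.72 ± 0.49 (adjusted p = 0.398). Nrp1 was −0.34 and Kdr 0.32 without the 2 libraries.

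Among 17 tested genes of the Plexin-D1 and class 3 semaphorin pathway, 4 (23.5%) had a negative and 1 (5.88%) a positive interaction at an unadjusted p under 0.05, against 18.4% and 1.27% of all tested genes. Plxna3, a plexin that works with neuropilins, was at 13.7, 17.3 and 15.7 TPM in OST Sema3E and 21.6, 22.0 and 22.8 TPM in OST IgG, and at 17.2, 17.5 and 15.4 TPM in GC Sema3E and 10.2, 15.8 and 15.0 TPM in GC IgG. Only its OST groups were apart (interaction −0.78 ± 0.21, and −0.58 without the 2 libraries). The ligand Sema3c was at 2.83, 4.73 and 4.32 TPM in OST Sema3E and 5.68, 5.86 and 5.48 TPM in OST IgG, and at 10.4, 9.47 and 10.6 TPM in GC Sema3E and 6.81, 9.39 and 7.67 TPM in GC IgG. Its groups were apart in both tissues, in opposite directions (interaction −0.78 ± 0.22, and −0.71 without the 2 libraries). The others were the ligands Sema3b (−1.14 ± 0.40) and Sema3g (−0.88 ± 0.32) and the small GTPase Rras (0.64 ± 0.29), a target of plexin GTPase-activating domains. Without the 2 libraries Sema3b was −0.65 (unadjusted p = 0.0699, limma) and Rras 0.32 (unadjusted p = 0.0909, limma), both past the threshold no longer, and Sema3g was −0.50. The list's median interaction was −0.05, with 3 negative and 0 positive genes and a median of −0.19 without the 2 libraries, and it became 0.14 with median-ratio scaling.

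Angiogenesis regulators did not move one way. Of 29 tested, 2 had a positive interaction at an unadjusted p under 0.05, both of the Notch pathway, and 3 a negative one (6.90% and 10.3%, against 1.27% and 18.4% of all tested genes). Without the 2 libraries 0 were positive and 5 negative at that threshold, and the list's median was 0.09, against 0.32 over 12 libraries. Dll4, a Notch ligand of sprouting endothelium, was at 12.9, 8.46 and 15.4 TPM in OST Sema3E and 9.03, 7.39 and 6.89 TPM in OST IgG, and at 0.389, 0.157 and 0.0465 TPM in GC Sema3E and 0.765, 1.64 and 0.114 TPM in GC IgG. Both tissues overlapped (interaction 1.11 ± 0.41, and 1.02 with an unadjusted p of 0.0698 by limma without the 2 libraries). Nrarp, a feedback inhibitor of Notch, had an interaction of 1.27 ± 0.49 (1.07 with an unadjusted p of 0.0749 by limma without the 2 libraries) and likewise overlapped in both tissues. On the negative side were Hey2, a repressor induced by Notch (−1.19 ± 0.45, and −0.59 without the 2 libraries), Thbs1, an inhibitor of angiogenesis (−0.77 ± 0.31), and Angpt2, an antagonist of Tie2 that destabilises vessels (−0.63 ± 0.26). Angpt2 was at 4.55, 5.78 and 5.96 TPM in OST Sema3E and 5.11, 7.62 and 5.77 TPM in OST IgG, and at 1.46, 1.99 and 1.28 TPM in GC Sema3E and 0.865, 1.17 and 0.527 TPM in GC IgG, so that only the GC groups were apart. Vegfa, the main angiogenic ligand, had an interaction of 0.15 ± 0.37. Of 17 endothelial markers, 16 had a positive interaction, with a median of 0.54 (0.19 without the 2 libraries), but only the tight junction gene Cldn5 had an unadjusted p under 0.05 (0.94 ± 0.43), and it did not keep it without the 2 libraries (0.90, unadjusted p = 0.113, limma).

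Oocyte genes had the most negative median of the 29 gene lists examined. All 16 oocyte markers had a negative interaction, with a median of −1.19 against −0.22 over all tested genes, and 9 of them had an unadjusted p under 0.05, against 18.4% of all tested genes in that direction. The median was made of −0.69 in OST and 0.50 in GCs. Bmp15, an oocyte growth factor of the TGF-beta family, was at 57.7, 52.2 and 37.2 TPM in OST Sema3E and 56.1, 63.7 and 176 TPM in OST IgG, and at 74.4, 78.4 and 81.3 TPM in GC Sema3E and 69.2, 58.1 and 27.8 TPM in GC IgG. OST overlapped, with OST IgG replicate 3 far above the other libraries, and in GCs all Sema3E libraries were above all IgG libraries, with GC IgG replicate 3 the lowest (interaction −1.50 ± 0.60, and −1.24 without the 2 libraries). Nlrp5, a maternal-effect gene of the egg cortex, was at 11.1, 11.8 and 8.67 TPM in OST Sema3E and 12.4, 14.8 and 38.6 TPM in OST IgG, and at 7.42, 7.05 and 7.85 TPM in GC Sema3E and 5.88, 5.79 and 3.69 TPM in GC IgG. It was without overlap in both tissues (interaction −1.31 ± 0.48, and −0.93 without the 2 libraries). The zona pellucida genes Zp1, Zp2 and Zp3, the growth factor Gdf9, and Padi6, Nobox and Kit completed the 9.

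The oocyte markers moved as 1 block from library to library, so their summed level shows the same pattern. The 16 genes summed to 426 to 677 TPM in OST Sema3E and 606 to 1964 TPM in OST IgG, and to 502 to 554 TPM in GC Sema3E and 239 to 426 TPM in GC IgG. Treated libraries were above controls in GCs without overlap, and the OST ranges overlapped. The number of markers at an unadjusted p under 0.05 was 16 without OST IgG replicate 1 and 1 without GC IgG replicate 3 or without GC Sema3E replicate 3. It was 11 without the 2 libraries, where the median was −0.82, and 0 with median-ratio scaling, where the median was −0.91. Whether the number of oocytes carried into each sample played a part was not tested.

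Granulosa cell markers were negative as well, with a median of −0.78 (−0.31 without the 2 libraries and −0.49 with median-ratio scaling). All but 1 of the 18 tested had a negative interaction, and 8 (44.4%) had an unadjusted p under 0.05, against 18.4% of all tested genes in that direction. Kctd14 led them, at 95.4, 62.1 and 47.9 TPM in OST Sema3E and 76.1, 69.6 and 280 TPM in OST IgG, and at 28.6, 25.7 and 18.8 TPM in GC Sema3E and 7.77, 7.30 and 12.8 TPM in GC IgG. The GC groups were apart and the OST groups overlapped (interaction −2.11 ± 0.68, and −1.37 without the 2 libraries). Amh, the hormone of small growing follicles, was at 944, 799 and 401 TPM in OST Sema3E and 707, 722 and 3073 TPM in OST IgG, and at 258, 242 and 320 TPM in GC Sema3E and 92.6, 98.0 and 247 TPM in GC IgG. In OST only OST IgG replicate 3 lay apart, and GC IgG replicate 3 lay within the GC Sema3E range (interaction −1.84 ± 0.82, and −0.89 without the 2 libraries). The others were Serpine2, Inhbb, Esr2, Gja1, Fst and Nap1l5, with interactions of −1.61 to −0.76, and of −0.81 to −0.33 without the 2 libraries, where Gja1, Fst, Nap1l5 and Amh were no longer at an unadjusted p under 0.05. The count of 8 ranged from 2 to 13 when single libraries were left out.

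The cell cycle list did not stand out from all genes in its count. All but 2 of 28 cell cycle genes had a negative interaction, and Mki67 (−0.87 ± 0.28), Ccnd2 (−1.03 ± 0.37), E2f1 (−0.59 ± 0.25), Cenpf (−0.70 ± 0.30) and Top2a (−0.54 ± 0.23) had an unadjusted p under 0.05, which is 17.9% of the list against 18.4% of all tested genes in that direction. The list's median was −0.40, and it was −0.05 without the 2 libraries, where 2 genes were negative at that threshold, and −0.12 with median-ratio scaling, where 1 was negative and 1 positive. Ccnd2 was −0.58 and Mki67 −0.52 without the 2 libraries, and E2f1, Cenpf and Top2a were no longer past the threshold. Tac1, the precursor of substance P, stood out among the neuropeptide genes. It was at 2.26, 2.53 and 1.81 TPM in OST Sema3E and 3.08, 4.45 and 1.07 TPM in OST IgG, and at 6.06, 7.15 and 9.20 TPM in GC Sema3E and 2.25, 1.62 and 1.74 TPM in GC IgG. The difference lay in GCs, where all Sema3E libraries were above all IgG libraries (interaction −1.72 ± 0.42, adjusted p = 0.179). Without the 2 libraries it was −2.21 ± 0.25 (adjusted p = 0.0373). Ache, the acetylcholine-degrading enzyme (−0.93 ± 0.32), and Gal, the precursor of galanin (−0.92 ± 0.41), were the other neuropeptide and synaptic genes at an unadjusted p under 0.05. With Tac1 they are 20% of the tested list, against 18.4% of all tested genes in that direction.

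The LH-responsive and inflammatory lists had positive medians over 12 libraries and few genes past the unadjusted threshold. The 28 interferon-stimulated genes all had a positive interaction, with a median of 1.12, and only Bst2, a membrane protein that tethers budding virions, had an unadjusted p under 0.05 (0.95 ± 0.40, and 0.83 with an unadjusted p of 0.0514 by limma without the 2 libraries). Cxcl10, an interferon-induced chemokine, was at 5.09, 4.49 and 35.2 TPM in OST Sema3E and 3.5, 8.85 and 2.54 TPM in OST IgG, and at 2.28, 0.710 and 0.420 TPM in GC Sema3E and 96.8, 1.97 and 1.03 TPM in GC IgG. OST Sema3E replicate 3 and GC IgG replicate 1 were high, and the other libraries overlapped (interaction 3.06 ± 1.81, and 0.98 without the 2 libraries). The list's median was 0.04 without the 2 libraries. Macrophage and monocyte markers had a median of 0.67 over 12 libraries and −0.43 without the 2, neutrophil genes 0.50 and −0.45, and leukocyte adhesion genes 0.35 and −0.60, with 0 of 20, 0 of 19 and 0 of 14 tested members at an unadjusted p under 0.05 over 12 libraries. The sign of these 3 medians also turned without GC IgG replicate 1 alone, to −0.21, −0.25 and −0.37 in the same order. That library was picked for its high macrophage and monocyte markers, so a lower median of that list without it was built in. Over 12 libraries Bst2 made 3.57% of the interferon list. Of all tested genes 1.27% were positive and 18.4% negative at an unadjusted p under 0.05.

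The 23 cholesterol synthesis genes had a median interaction of 0.96 (0.25 without the 2 libraries) and the 20 steroidogenic genes one of 0.73 (0.10), with 0 genes of either list at an unadjusted p under 0.05. Of all tested genes 1.27% were positive and 18.4% negative at that threshold. Star was at 1173, 1509 and 1801 TPM in OST Sema3E and 1599, 1535 and 12.1 TPM in OST IgG, and at 1033, 873 and 1125 TPM in GC Sema3E and 845, 1474 and 825 TPM in GC IgG. Apart from OST IgG replicate 3 the groups overlapped in both tissues. The interaction was 2.22 ± 2.04 over 12 libraries and 0.04 without the 2. Cebpb, an LH-induced transcription factor of granulosa cells, had an interaction of 1.49 ± 1.39 and of 0.09 without the 2 libraries, and Lhcgr, the LH receptor, of 0.98 ± 1.13 and 0.02.

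Areg (chr5:91139599-91148432, plus strand), the EGF-like factor that relays the LH signal to the cumulus, was the only one of 28 LH-induced genes at an unadjusted p under 0.05. That is 3.57% of the list, against 1.27% of all tested genes in the positive direction. The list's median was 0.62 over 12 libraries. It was −0.11 without the 2 libraries, where 6 members were negative and 1 positive at that threshold. Areg was at 4.35, 4.84 and 18.4 TPM in OST Sema3E and 2.77, 4.21 and 0.0718 TPM in OST IgG, and at 5.30, 2.97 and 3.48 TPM in GC Sema3E and 33.1, 5.26 and 9.99 TPM in GC IgG. The OST groups did not overlap and the GC groups overlapped, with the extremes in OST Sema3E replicate 3, OST IgG replicate 3 and GC IgG replicate 1. The interaction was 3.08 ± 1.04 (adjusted p = 0.19) and 1.71 without the 2 libraries. Areg and Meg3, with interactions of opposite sign, are shown with their proximal promoters because both hold the consensus cAMP response element TGACGTCA, the site through which CREB mediates cAMP signals. The sequences are from RefSeq (GRCm38.p6), 5′ to 3′ on the strand of the gene, and the capitals mark the element.
Areg, chr5:91139478-91139598, plus strand: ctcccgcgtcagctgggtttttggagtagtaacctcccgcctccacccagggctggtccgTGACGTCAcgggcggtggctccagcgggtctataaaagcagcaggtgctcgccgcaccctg
Meg3, chr12:109540879-109540995, plus strand: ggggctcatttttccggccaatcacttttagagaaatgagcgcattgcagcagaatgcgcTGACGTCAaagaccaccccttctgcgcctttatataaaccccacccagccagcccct
The element began 61 bases before the RefSeq start of Areg and 57 bases before the RefSeq start of Meg3, which for Meg3 lies at position 109540996, upstream of the GENCODE start given above. Searched on both strands in the 250 bases before the start of 11079 tested genes with a RefSeq promoter, it was found in 2.81%. Among genes that met the unadjusted rule and had a promoter sequence, 6 of 220 negative (2.73%) and 2 of 38 positive genes (5.26%) held it. Only 75.5% of the tested genes had a promoter sequence, and a difference of these shares was not tested. Btg2 and Dusp1 held the element too. A match describes the sequence and not a bound site.

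The genes that the study had also measured by RT-qPCR were chosen on these samples and are not independent evidence. All 8 genes of its GC panel had a positive interaction, with a median of 1.20 (0.17 without the 2 libraries), and Areg and Nrarp had an unadjusted p under 0.05. Of the 6 genes of its OST panel, Angpt2 alone had one. These are 25% of the GC panel, positive, and 16.7% of the OST panel, negative. Over all tested genes 1.27% were positive and 18.4% negative at that threshold. Selplg, the ligand of P-selectin on leukocytes, had an interaction of 0.27 ± 1.05, Cd44, a hyaluronan receptor, of 0.72 ± 0.79, and Agtr2, an angiotensin receptor, of −1.37 ± 0.85. These were −0.86 for Selplg, −0.39 for Cd44 and −0.51 for Agtr2 without the 2 libraries, so that Selplg and Cd44 turned sign.

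**Figure D4:**
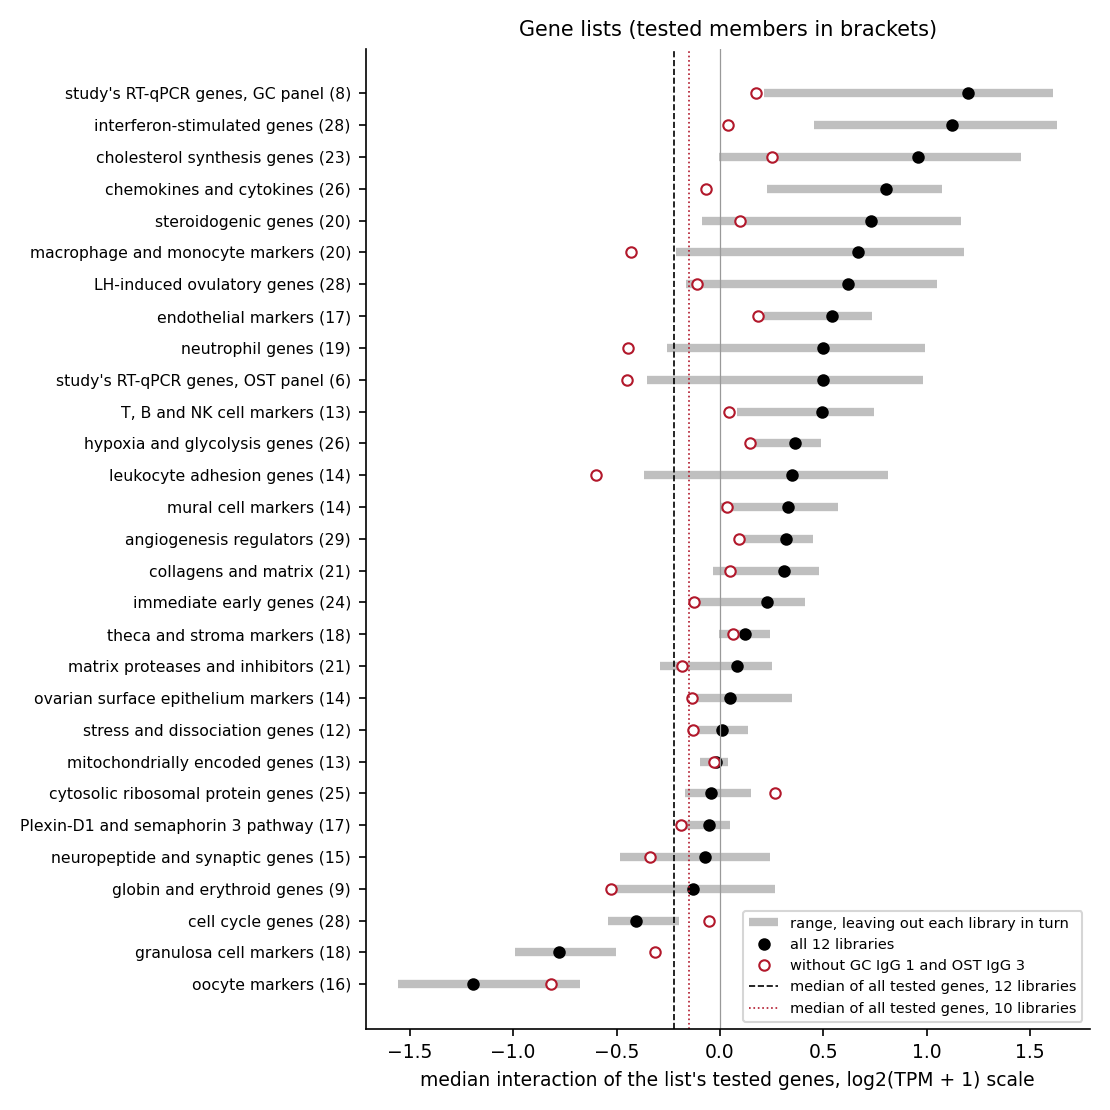
Median interaction (x axis, log2(TPM + 1) scale) of the tested members of 29 gene lists over 12 libraries (filled points) and without GC IgG replicate 1 and OST IgG replicate 3 (open points), with the range when each library was left out in turn (grey bars). Oocyte and granulosa cell markers lay below the median of all genes in both fits (−0.22 over 12 libraries, −0.15 without the 2). Immune and LH-induced lists lay near or below 0 without the 2 libraries. In that fit the leukocyte adhesion (−0.60), neutrophil (−0.45) and macrophage and monocyte (−0.43) lists lay below the granulosa cell markers (−0.31).

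The interaction also followed transcript length. The tested genes were split into 5 bins of nearly equal size by their longest annotated transcript. In the bin of the shortest transcripts (204 to 1707 bases) the median interaction was −0.0022, and in the following bins it was −0.12, −0.21, −0.28 and, for transcripts of 4962 bases or longer, −0.42. Unadjusted p under 0.05 with a negative interaction was reached by 4.88% of the shortest and 41.1% of the longest bin, and with a positive one by 3.55% and 0.137%. Both tissues contributed, with a median change of −0.30 in OST and 0.12 in GCs for the longest bin and of 0.00044 in OST and 0.0026 in GCs for the shortest. The longest bin took 3.91% to 4.79% of TPM in OST Sema3E and 5.26% to 5.52% in OST IgG, and 4.92% to 5.44% in GC Sema3E and 4.09% to 5.25% in GC IgG.

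This gradient did not rest on 1 library. The median of the longest minus that of the shortest bin was between −0.46 and −0.35 when each library was left out in turn. Without the 2 libraries the medians were 0.06 in the shortest and −0.32 in the longest bin, and with median-ratio scaling 0.23 and −0.19, so that scaling moved the level and kept the order. Over genes, which are not independent, the interaction and length had a Spearman rho of −0.32, and the interaction and transcript GC content one of 0.18. The 335 negative genes had a median of 3069 bases against 3096 over all genes, while the 58 positive genes had 1936.5. The part of transcript length in the values of single genes was not tested.

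**Figure D5:**
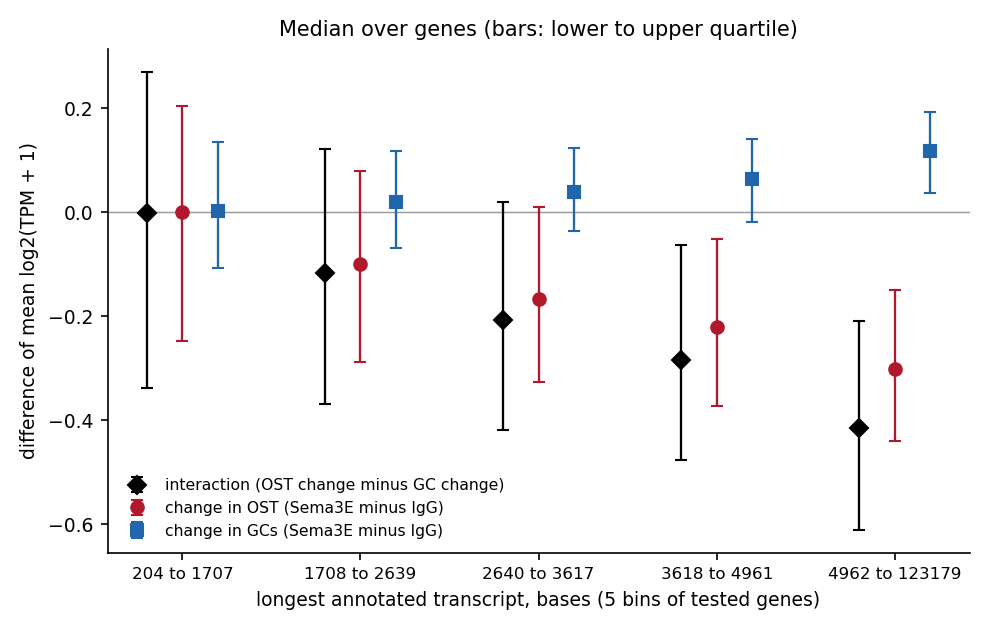
Median and quartiles over genes (y axis, difference of mean log2(TPM + 1)) of the interaction and of the change in each tissue, in 5 bins of the tested genes by the length of the longest annotated transcript (x axis, bases). The interaction median was lower in each longer bin, down to −0.42 in the longest, with OST changes negative and GC changes positive.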

How the data were processed

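RNA of 12 libraries (OST or GCs of 1 ovary each) was sequenced by the authors, aligned to GRCm38/mm10 with HISAT2 2.0.5 and counted per gene with featureCounts 1.5.0-p3. The deposited values are TPM computed by the authors, for which the submitters' processing notes name edgeR 1.3.3. TPM keep no depth, so the depth is unknown and no counting error can be given. Whether counting used strand is not given in the sources.

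For this work log2(TPM + 1) was fitted with limma 3.58.1 (R 4.3.3, moderated variances with trend and robust estimation) with 4 group means over all 12 libraries, over protein_coding and lncRNA genes with TPM over 1 in at least 1 column. The interaction was (OST Sema3E minus OST IgG) minus (GC Sema3E minus GC IgG), and p-values are two-sided and adjusted by Benjamini-Hochberg over all 14668 genes. Fold changes on this scale understate changes of low genes. Per the study's methods each replicate was the GCs or the OST of 1 ovary. A GC and an OST library may come from the same ovary, and a Sema3E and an IgG library from the same mouse. The p-values therefore rest on the spread between the libraries of a group, with any such pairing left out. The fit was tested on simulated data. Members and gene lists were chosen with earlier results of these data known. Named genes were up to 12 per direction with the smallest p among those with unadjusted p under 0.05, an interaction beyond 1 and no overlap in at least 1 tissue, up to 3 clone, predicted or lncRNA genes per direction, Sema3e, Plxnd1, Nrp1, Kdr and the RT-qPCR genes, up to 3 members of each list, and the 2 genes with the smallest adjusted p. A gene of the RT-qPCR panels is not reported here. Other list members in the text were named because they were the members past the unadjusted threshold. Of 29 lists, 5 genes were not found by symbol. Gene identifiers were matched to GENCODE M21 for positions, overlaps and transcript lengths (23095 of 23150 rows matched), as the start and end in the deposited table equal those of GENCODE for only 104 genes. Alternatives were another pseudocount, filter and gene class, median-ratio scaling, removal of globin and mitochondrial genes, non-robust and weighted fits, replicate blocks, and leaving out single libraries or the 2 that stood apart.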

Additional observations from a re-analysis of the deposited data

How the results depend on the processing

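On the TPM scale negative genes outnumbered positive ones under every alternative run. Genes at an adjusted p under 0.05 numbered 0 over 12 libraries and under all alternatives other than the 3 named here. There were 11 without GC IgG replicate 1 and OST IgG replicate 3, which were picked by their values in these data. With median-ratio scaling in addition, an alternative chosen after seeing the data, there were 103, and 65 positive and 78 negative genes met the unadjusted rule. Against 58 positive and 335 negative genes as reported, there were 101 and 779 with a pseudocount of 0.1, 96 and 503 with genes of all biotypes, 153 and 91 with median-ratio scaling, and 45 and 148 without the 2 libraries. Leaving out single libraries gave 34 to 208 positive and 136 to 694 negative genes. The lowest negative count was without OST IgG replicate 3, and the highest counts of both were without OST IgG replicate 1. Oocyte markers with a negative interaction at an unadjusted p under 0.05 were 9 of 16, against 0 with median-ratio scaling and 1 to 16 when single libraries were left out. Granulosa cell markers were 8 of 18, against 2 with median-ratio scaling, 4 without the 2 libraries, 2 without them and with median-ratio scaling, and 2 to 13 when single libraries were left out. Over all 14668 tested genes, 2700 were negative at that threshold over 12 libraries, 1260 with median-ratio scaling and 2479 without the 2 libraries. There were 1534 without them and with median-ratio scaling, and 1759 to 3190 when single libraries were left out.

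Replicate numbers were not taken as pairs, since no source ties a number to a mouse. Between same-numbered Sema3E and IgG libraries of a tissue, 2 of 6 correlations of deviations were over 0.1 (range −0.34 to 0.45). Between same-numbered libraries of different tissues 5 of 12 were (range −0.26 to 0.30). The deviations within a group cancel for each gene and are not independent, so these correlations cannot decide the pairing. With the number as a replicate block there were 0 genes at an adjusted p under 0.05, 66 positive and 301 negative genes by the unadjusted rule, and 3 oocyte markers. With a replicate block within tissue there was 1 gene (Gm49708, −2.57, adjusted p = 0.0438), 66 positive and 264 negative genes, 2 oocyte and 3 granulosa cell markers. With 3 libraries a group and TPM that keep no depth, a p over the threshold does not show that a gene did not differ between the tissues.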

Other observations

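Gene families defined by symbol, and chosen after their values were seen, differed in the sign of the interaction. Over all tested genes 1.27% were positive and 18.4% negative at an unadjusted p under 0.05. Nuclear-encoded subunits of respiratory complex I (39 Nduf genes) had a median of 0.22 with 6 positive (15.4%) and 0 negative genes at an unadjusted p under 0.05, the ATP synthase subunits (17 Atp5 genes) a median of 0.27 with 1 positive and 0 negative, and the cytochrome c oxidase subunits (17 Cox genes) 0.29 with 3 positive and 1 negative. With median-ratio scaling 31, 15 and 12 of these genes were positive at that threshold. Over all 14668 tested genes 1255 were positive and 1260 negative with that scaling. The 78 mitochondrial ribosomal protein genes had a median of 0.08 and 53 positive genes with that scaling, against 3 on the TPM scale. Zinc finger genes (355 Zfp genes) had a median of −0.45 with 141 negative (39.7%) and 1 positive, and 77 negative with median-ratio scaling. The 10 Srsf splicing factors had a median of −0.48 with 6 negative. The median annotated transcript was 1005 bases for Nduf, 680 for Cox and 3619 for Zfp genes, and the interaction changed along length. Not all short families were positive. The 61 histone genes (539 bases) had a median of −0.08 with 2 positive and 2 negative genes. The 84 Rpl and Rps genes (1054 bases) had a median of 0.0066 with 0 positive and 1 negative. The part of length in these families was not tested.

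Rpl29, a ribosomal protein gene, was at 1523, 1421 and 324 TPM in OST Sema3E and 1376, 1423 and 777 TPM in OST IgG, and at 764, 767 and 785 TPM in GC Sema3E and 65.6, 45.9 and 495 TPM in GC IgG. Its interaction was −3.11 ± 1.16, while the 84 Rpl and Rps genes had a median of 0.0066. Only 2 of the 12 libraries, both GC IgG, held it under 100 TPM.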
